A study of Mus musculus with 31 samples.

Results

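The 10 genes Pvalb, Sst, Vip, Npy, Cck, Calb2, Gad1, Gad2, Slc32a1 and Lhx6, which mark the inhibitory interneurons of the cerebral cortex, were followed through mRNA, ribosome footprints and translational efficiency. They were chosen by name, as textbook markers of interneuron classes, from the 20436 gene symbols counted in each assay. Earlier results of these data, among them the lower Pvalb mRNA, were known when the choice was made. All 10 passed the filter on low counts, so that they were tested among 14215 genes for mRNA, 13953 for footprints and 13654 for translational efficiency. Cortex was dissected from mice at postnatal days 29 to 34 of 4 genotypes. WT is the wild type, FXS is deficient in Fmr1, S6K1 is deficient in Rps6kb1 and DKO is deficient in both genes. Fmr1 encodes FMRP, an RNA-binding protein whose loss causes fragile X syndrome, and Rps6kb1 encodes the S6 kinase S6K1, which acts on the translation machinery downstream of mTOR. The labels give no strain, no sex and no allele beyond these names. The deficiencies are not limited to interneurons by anything in the labels, and the tissue is whole dissected cortex with all its cell types.

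Cortical interneurons release GABA onto their neighbours and are commonly sorted by a few products. Parvalbumin marks fast-spiking basket and chandelier cells, somatostatin marks cells that contact dendrites, and the vasoactive intestinal peptide gene Vip marks cells that mostly contact other interneurons. Parvalbumin and somatostatin cells share an origin in the medial ganglionic eminence, where Lhx6 specifies their fate. Altered inhibition, and parvalbumin cells in particular, have a long record of study in mice without Fmr1.

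The mRNA set comprised 16 libraries, 4 per genotype, and batches 5 to 8 of the labels each carried a full set of genotypes. The footprint set comprised 15 libraries from batches 1 to 4 (WT 4, FXS 5, S6K1 3, DKO 3). Footprints of DKO and WT shared batches 3 and 4, those of S6K1 and WT shared batches 2 and 3, and batch 1 consisted of S6K1 and DKO alone. Total counts ran from 12.1 to 17.3 M per mRNA library and from 16.6 to 34.9 M per footprint library. The lowest count of any of the 10 genes in any library was 91, for Lhx6 mRNA, and every other gene had at least 361 counts in every library. The targeted genes bore out the labels. Mean Fmr1 mRNA, with 4 libraries each, was 16.4 CPM ± 3.96 (SD) for FXS and 15.3 ± 4.56 for DKO, beside 67.6 ± 9.71 for WT and 72.8 ± 7.29 for S6K1. Mean Rps6kb1 footprints were 10.2 CPM ± 2.58 (SD) for S6K1 and 11.6 ± 0.35 for DKO, beside 28.9 ± 2.48 for WT and 32.5 ± 2.72 for FXS. CPM stands here for counts per M of library, after scaling between libraries. The labels do not say that libraries came from separate animals, so that p-values measure the spread between these libraries.

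Of the 10 genes only Pvalb was called between genotypes by edgeR, and its mRNA fell in both genotypes that lack Fmr1. It fell by 0.60 in FXS and by 0.39 in DKO on the log2 scale, against WT, while the S6K1 difference was -0.06. Its promoter and those of Sst, Npy and Cck are shown because Pvalb was the gene that changed, and because the peptide genes Sst and Npy moved together from library to library. Each window runs from 250 bases before the transcription start to 50 bases after it, 5′ to 3′ on the gene's own strand, from RefSeq on build GRCm38.p6. Capitals mark the cAMP response element TGACGTCA, the site bound by CREB, or its core TGACG, searched on both strands.
Pvalb, chr15:78206351-78206650, minus strand: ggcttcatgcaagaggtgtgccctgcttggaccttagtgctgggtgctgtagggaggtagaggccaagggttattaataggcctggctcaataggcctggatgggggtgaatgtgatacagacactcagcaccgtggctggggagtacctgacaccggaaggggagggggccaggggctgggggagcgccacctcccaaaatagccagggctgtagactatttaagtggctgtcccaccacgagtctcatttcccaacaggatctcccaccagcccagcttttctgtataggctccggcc
Sst, chr16:23890795-23891094, minus strand: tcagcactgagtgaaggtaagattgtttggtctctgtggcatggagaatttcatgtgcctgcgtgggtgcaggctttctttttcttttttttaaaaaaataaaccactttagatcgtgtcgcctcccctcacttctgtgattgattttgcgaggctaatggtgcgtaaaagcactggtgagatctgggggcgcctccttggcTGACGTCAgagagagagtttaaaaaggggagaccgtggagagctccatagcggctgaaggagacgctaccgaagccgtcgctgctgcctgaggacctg
Npy, chr6:49822460-49822759, plus strand: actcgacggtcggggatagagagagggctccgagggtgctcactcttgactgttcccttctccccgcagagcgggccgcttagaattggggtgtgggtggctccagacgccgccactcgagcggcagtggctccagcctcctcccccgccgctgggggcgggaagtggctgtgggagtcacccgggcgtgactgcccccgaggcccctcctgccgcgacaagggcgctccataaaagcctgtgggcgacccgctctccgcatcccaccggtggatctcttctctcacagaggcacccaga
Cck, chr9:121495645-121495944, minus strand: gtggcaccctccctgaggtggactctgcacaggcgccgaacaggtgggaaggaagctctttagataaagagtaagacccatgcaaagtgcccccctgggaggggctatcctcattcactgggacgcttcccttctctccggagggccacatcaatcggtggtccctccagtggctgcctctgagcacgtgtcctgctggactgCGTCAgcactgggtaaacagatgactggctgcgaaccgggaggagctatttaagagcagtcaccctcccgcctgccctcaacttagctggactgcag

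The full element TGACGTCA was found in 1 of the 10 genes, Sst, 48 bases before the start, where it is a textbook site of cAMP control. It was in 1.79% of all 32851 promoter windows of this length. The core TGACG, which is part of the full element, was in Sst, Vip, Cck and Gad2, and in 20.8% of all windows. Neither the Pvalb window shown nor the other Pvalb window of the RefSeq table held the core. Windows were found for 9 of the 10 genes.

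Parvalbumin, the product of Pvalb, is a calcium-binding protein that buffers calcium in fast-spiking cells. Pvalb mRNA in batches 5, 6, 7 and 8 was 102.6, 93.6, 82.2 and 64.4 CPM in WT. It was 64.4, 52.2, 54.4 and 51.4 CPM in FXS. It was 104.5, 95.4, 83.6 and 50.2 CPM in S6K1 and 71.5, 71.7, 62.8 and 53.3 CPM in DKO. Every FXS library and every DKO library lay below the WT library of its own batch, by 0.32 to 0.84 log2 units in FXS and by 0.27 to 0.52 in DKO. Across batches the groups overlapped: the WT library of batch 8 lay at the level of the FXS library of batch 5, and the S6K1 library of batch 8 was the lowest of all 16. Over 4 libraries each, FXS averaged 55.6 CPM ± 6.00 (SD), DKO 64.8 ± 8.72, WT 85.7 ± 16.5 and S6K1 83.4 ± 23.7.

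With batch in the model, Pvalb mRNA had a log2 fold change of -0.60 ± 0.10 (SE) in FXS against WT (edgeR quasi-likelihood test with Benjamini-Hochberg adjustment, adjusted p = 0.00927). A gene was called when this adjusted p was below 0.05. The other 9 genes were not called, and over all genes 0.155% were called in this comparison, 0.0774% lower. In DKO against WT the log2 fold change was -0.39 ± 0.10 (edgeR adjusted p = 0.0235), and again Pvalb was the only member called, beside 5.23% of all genes called and 2.06% called lower. Both comparisons use the same WT libraries, and Pvalb was among the genes chosen with its lower mRNA already known. In this tissue extract, fewer parvalbumin cells and less Pvalb mRNA per cell cannot be told apart.

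DKO and S6K1, which differ in Fmr1, had Pvalb mRNA apart by -0.33 ± 0.10 (edgeR adjusted p = 0.106), which was not called. The difference of DKO from FXS was 0.21 ± 0.10 (edgeR adjusted p = 0.499). The interaction, which asks whether losing Fmr1 has the same effect without S6K1 as with it, was 0.27 ± 0.14 (edgeR adjusted p = 1), with an unadjusted p of 0.0626 by edgeR and a 95% interval of 0.00 to 0.54 from the SE alone. These libraries thus did not show that the Pvalb difference changes with the loss of S6K1, and did not show that it stays the same.

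**Figure D1:**
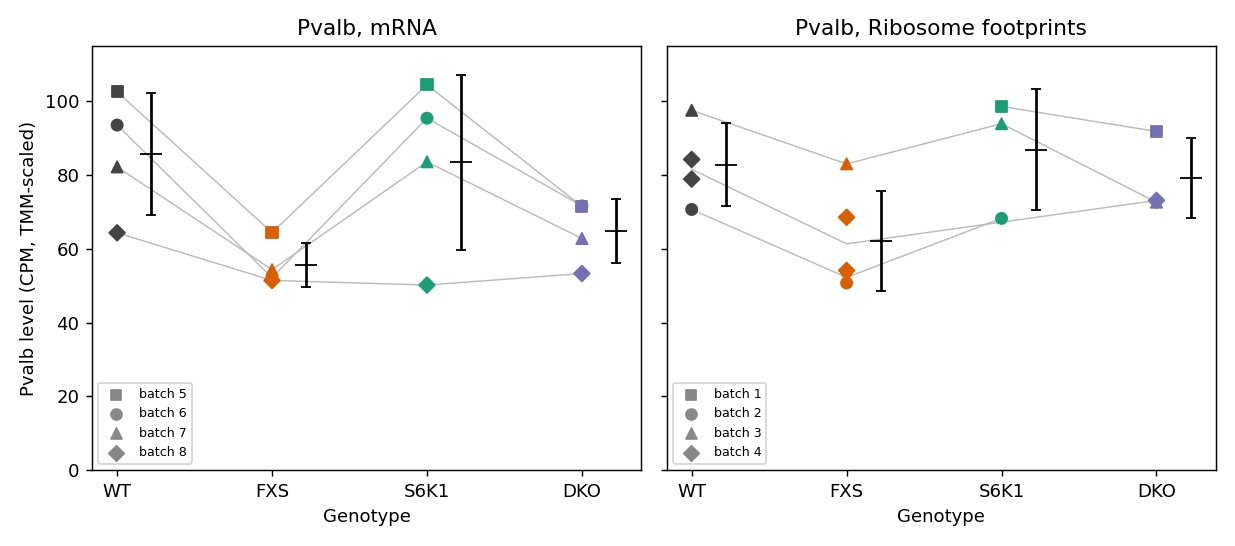
Pvalb level in each library (CPM, vertical axis) by genotype, for mRNA at left and ribosome footprints at right. Symbols give the batch, grey lines join the batch means, and the bars beside the points give the mean ± SD. In mRNA every FXS and DKO point lies below the WT point of its batch, and the WT level falls from 102.6 in batch 5 to 64.4 CPM in batch 8.

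The Pvalb calls rested on most libraries. The FXS call held without WT replicate 4 (edgeR adjusted p = 0.0209) and without FXS replicate 4 (0.000611), both of batch 8. It was lost without WT replicates 1, 2 or 3 (edgeR adjusted p = 0.0514, 0.0842 and 0.0633) and without FXS replicates 1, 2 or 3 (0.0681, 0.0813 and 0.0823). The DKO call held without WT replicate 4 (edgeR adjusted p = 0.0303) and DKO replicate 4 (0.0311). It was lost without WT replicates 1, 2 or 3 (edgeR adjusted p = 0.0648, 0.100 and 0.0782) and without DKO replicates 1, 2 or 3 (0.0720, 0.0579 and 0.0930). Without the batch term the log2 fold changes were -0.62 and -0.40 and neither was called (edgeR adjusted p = 0.998 in FXS and 0.477 in DKO). Over 16 alternatives the FXS value stayed between -0.72 and -0.52 and the DKO value between -0.43 and -0.35.

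Pvalb footprints were 70.7, 97.5, 78.9 and 84.2 CPM in the 4 WT libraries. They were 50.7, 53.8, 83.0, 68.6 and 54.2 CPM in FXS. They were 98.6, 68.3 and 93.9 CPM in S6K1 and 91.8, 72.6 and 73.1 CPM in DKO. The 3 lowest libraries were FXS, but the FXS library of batch 3 was above 2 of the 4 WT libraries, so the groups overlapped. Within batches FXS lay below WT in 3 of 3, by 0.23 to 0.44 log2 units, and DKO in 2 of 2, by 0.16 to 0.43. The log2 fold change in footprints was -0.38 ± 0.08 in FXS (edgeR unadjusted p = 0.000438, adjusted p = 0.111) and -0.27 ± 0.10 in DKO (edgeR adjusted p = 0.222), neither called. DESeq2 called the FXS value (adjusted p = 0.0101). The authors' deposited table gives the same 2 comparisons as -0.38 (adjusted p = 0.00802) and -0.27 (adjusted p = 0.171). For mRNA the authors' deposited table gives -0.60 in FXS (adjusted p = 1.02e-05) and -0.40 in DKO (adjusted p = 0.00399). Translational efficiency, the footprint difference minus the mRNA difference, was 0.22 ± 0.14 in FXS (edgeR adjusted p = 0.496) and 0.12 ± 0.15 in DKO (edgeR adjusted p = 0.652). Of 12 oligodendrocyte genes, 4 were called lower in FXS footprints, 4 in DKO and none in S6K1, beside 0.165%, 0.366% and 0.00717% of all genes. The median log2 fold change of the 12 in footprints was -0.69 in DKO, -0.59 in FXS and -0.46 in S6K1. In translational efficiency 1 of the 12 was called lower in FXS, 9 in DKO and 1 in S6K1, beside 0.0952%, 4.85% and 0.0293% of all genes. The FXS call, Myrf, was kept under 0 of 7 other settings and the S6K1 call, Cnp, under 5 of 7. The DKO calls were kept under 2 of 7 (Ugt8a) to 6 of 7 (Myrf and Cnp). The summed footprints of the 12 ran from 2998 to 4371 CPM in WT, 1922 to 2914 in FXS, 2817 to 3043 in S6K1 and 2035 to 2850 in DKO. Their part in the Pvalb footprint values was not tested.

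A list of 15 other genes of parvalbumin basket cells, among them the potassium channel genes Kcnc1, Kcnc2 and Kcns3, the vesicle genes Syt2, Vamp1 and Cplx1, and Ppargc1a, had no member called in any comparison. Its median log2 fold change in mRNA was -0.12 in FXS and 0.02 in DKO, beside -0.01 and -0.00 over all genes tested. In footprints the median was -0.17 in FXS and -0.18 in DKO, beside -0.00 and -0.01 over all genes. Its summed mRNA level ran from 1013 to 1299 CPM in WT, from 951 to 1237 in FXS and from 1102 to 1294 in DKO. The perineuronal net, the matrix that wraps parvalbumin cells, had 2 of 9 genes called higher in DKO mRNA, where 5.23% of all genes were called. They were Ncan, higher by 0.43 ± 0.10 (edgeR adjusted p = 0.0200) and Hapln4, higher by 0.39 ± 0.10 (edgeR adjusted p = 0.0270). Both were called lower in DKO translational efficiency, where 4.85% of all genes were called, at -0.66 ± 0.19 (edgeR adjusted p = 0.0457) for Ncan and -1.32 ± 0.32 (edgeR adjusted p = 0.0310) for Hapln4. Tnr, which encodes the net glycoprotein tenascin-R, had an FXS translational efficiency difference of -0.61 ± 0.12 (edgeR adjusted p = 0.0497), a call that was kept under 1 of 7 other settings (DESeq2). With the olfactory bulb covariate the adjusted p by edgeR was 0.083 for Tnr, 0.219 for Ncan and 0.23 for Hapln4, so none of the 3 was called in translational efficiency. Without the batch term the mRNA differences of Ncan and Hapln4 had edgeR adjusted p values of 0.544 and 0.595.

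The genes whose mRNA followed Pvalb most closely over the 16 libraries, after each batch was centred, were no interneuron markers. By Pearson's r among 11385 genes they were Mrpl13 (r = 0.96), a mitochondrial ribosomal protein gene, Dnajc15 (0.95), Sec61g (0.92), Stx8 (0.92) and Cryzl1 (0.92). In the 15 footprint libraries the same 5 genes had r of -0.04, 0.23, -0.28, 0.03 and -0.02 with Pvalb. These r values are a description of the closest genes out of many and carry no test. Libraries were centred on batch and not on genotype, so that genotype differences enter them. Against WT the mRNA log2 fold changes of the 5 genes were -0.36 to -0.20 in FXS and -0.22 to -0.13 in DKO. In S6K1 they were -0.03 to 0.05, and none of these differences was called.

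Calb2 encodes calretinin, a calcium-binding protein of many Vip cells that is also abundant in interneurons of the olfactory bulb. Calb2 footprints were 46.9, 29.01, 77.7 and 70.6 CPM in WT. They were 44.8, 120.2, 68.6, 40.7 and 136.2 CPM in FXS. They were 106.9, 177.9 and 112.6 CPM in S6K1 and 82.6, 170.2 and 102.1 CPM in DKO. Every S6K1 and every DKO library was above every WT library, as was the case for 3.5% of all genes in S6K1 and 9.07% in DKO, while FXS spanned the whole range. The log2 fold change was 1.61 ± 0.59 in S6K1 (edgeR adjusted p = 0.501) and 1.43 ± 0.57 in DKO (edgeR adjusted p = 0.261). By batch the DKO difference was 2.55 in batch 3, which holds the lowest WT library, and 0.46 in batch 4. None of the 10 genes was called in footprints, where edgeR called 0.165% of all genes in FXS, 0.00717% in S6K1 and 0.366% in DKO against WT. At an unadjusted p below 0.05 by edgeR there were 1, 3 and 4 of the 10 in these comparisons, beside 9.87%, 8.74% and 17.1% of all genes.

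Calb2 mRNA went from 24.2 to 94.7 CPM over the 16 libraries, and every genotype overlapped every other. In batches 5 to 8 it was 51.4, 91.2, 68.8 and 41.6 CPM in WT and 24.2, 28.9, 51.4 and 76.5 CPM in DKO. Log2 fold changes were -0.69 ± 0.42 in FXS (edgeR adjusted p = 0.537), 0.12 ± 0.41 in S6K1 (edgeR adjusted p = 0.978) and -0.57 ± 0.42 in DKO (edgeR adjusted p = 0.466). Its translational efficiency in DKO was 2.00 ± 0.71 log2 units above WT (edgeR adjusted p = 0.0977), the widest of the 10 genes and not called.

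Genes of the olfactory bulb, a neighbouring region, moved with Calb2. The list of 8 genes, Cdhr1, Doc2g, Eomes, Tbx21, Th, Scgn, S100a5 and Sp8, was chosen after the values were seen. Its summed mRNA level ran from 54.0 to 195 CPM in WT, 34.9 to 101 in FXS, 62.0 to 214 in S6K1 and 19.8 to 220 in DKO. In footprints it ran from 10.5 to 54.1 CPM in WT, 8.35 to 111 in FXS, 20.5 to 182 in S6K1 and 25.8 to 125 in DKO. Footprint libraries of S6K1 and DKO thus reached higher sums than WT, although the groups overlapped. None of the 8 genes was called, with a median log2 fold change in footprints of 2.92 in S6K1 and 2.78 in DKO over the 7 tested. At least 1 of the 8 genes had no count in 2 of the mRNA libraries and 8 of the footprint libraries.

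Across libraries centred on batch, Calb2 and the summed olfactory bulb level had Pearson's r of 0.94 and Spearman's rho of 0.88 in mRNA (16 libraries), and 0.92 and 0.92 in footprints (15 libraries). Without the 2 libraries farthest from the median sum, r was 0.92 and 0.96. Gad1 followed the sum less closely, with r of 0.69 in mRNA and 0.83 in footprints, and Pvalb had r of 0.33 and -0.19. With the log2 sum as a covariate, the Calb2 footprint difference became 0.34 ± 0.37 in S6K1 and 0.20 ± 0.35 in DKO. Its translational efficiency in DKO became 0.39 ± 0.36. The Pvalb mRNA differences were -0.61 ± 0.10 in FXS (edgeR adjusted p = 0.0127) and -0.40 ± 0.10 in DKO (edgeR adjusted p = 0.0372) with that covariate, against -0.60 and -0.39 without it. The Pvalb footprint difference in DKO went from -0.27 to -0.11 ± 0.12. Beyond this covariate, the part of olfactory bulb RNA in the Calb2 values was not tested.

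**Figure D2:**
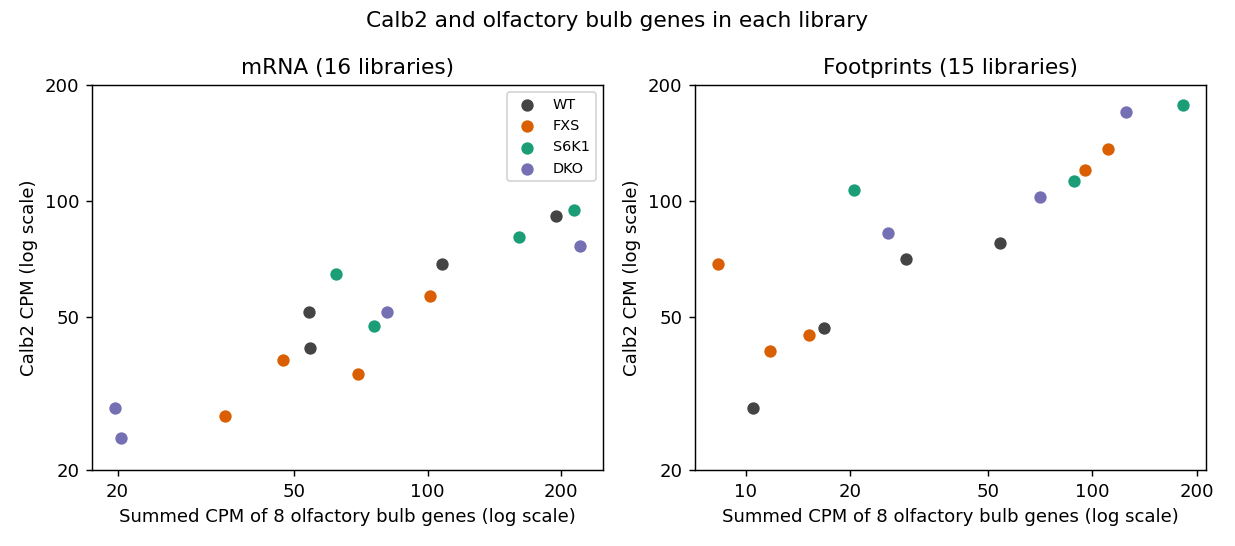
Calb2 level (CPM, vertical, log scale) against the summed level of 8 olfactory bulb genes (CPM, horizontal, log scale) in each library, with mRNA at left and footprints at right. Points are coloured by genotype. Calb2 rises with the sum in both assays, and the 3 S6K1 and 3 DKO footprint libraries all have more Calb2 than any WT library.

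Among the 4 peptide genes, Sst encodes somatostatin, an inhibitory peptide. Sst mRNA in batches 5 to 8 was 167.7, 276.4, 260.4 and 301.1 CPM in WT and 165.6, 387.6, 356.1 and 305.8 CPM in DKO. The DKO libraries of batches 6 and 7 were above all others, while the batch 5 library was level with WT, and the groups overlapped. The log2 fold change in DKO was 0.24 ± 0.09 (edgeR adjusted p = 0.104). It was called without WT replicate 4 alone (edgeR adjusted p = 0.0490). In FXS and S6K1 the values were 0.10 ± 0.09 and -0.03 ± 0.09. Sst footprints in DKO were 130.04, 100.2 and 159.4 CPM against 112.5 to 211 in WT, a log2 fold change of -0.24 ± 0.23 (edgeR adjusted p = 0.611). By batch this difference was -1.07 in batch 3 and 0.20 in batch 4. The translational efficiency of Sst in DKO was -0.48 ± 0.24 (edgeR adjusted p = 0.228).

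Of 14 other genes of somatostatin cells, 2 were called higher in DKO mRNA, where 5.23% of all genes were called. None was called in FXS or S6K1 mRNA against WT, where 0.155% and 0.0211% of all genes were. Cort, which encodes cortistatin, a peptide related to somatostatin, was higher by 0.91 ± 0.16 (edgeR adjusted p = 0.00444), and it was also higher in DKO than in S6K1, by 0.85 ± 0.16 (edgeR adjusted p = 0.0295), a comparison that called 0.387% of all genes. Elfn1, a synaptic organiser of somatostatin cells, was higher by 0.42 ± 0.11 (edgeR adjusted p = 0.0244). The translational efficiency of Cort was lower in DKO, at -1.31 ± 0.32 (edgeR adjusted p = 0.0271), and this value was not called with the olfactory bulb covariate, at -0.95 ± 0.33 (edgeR adjusted p = 0.221). The median of the list in DKO mRNA was 0.08, beside -0.00 over all genes. Of 17 peptide receptor and processing genes tested, 2 were called in DKO mRNA, both higher, again beside 5.23% of all genes: the cholecystokinin receptor gene Cckbr by 0.40 ± 0.09 (edgeR adjusted p = 0.0132) and the somatostatin receptor gene Sstr1 by 0.50 ± 0.14 (edgeR adjusted p = 0.0423). Of 15 markers of excitatory cortical neurons, 3 were called higher in DKO mRNA. Among them were Slc17a7, the vesicular glutamate transporter VGLUT1, higher by 0.33 ± 0.07 (edgeR adjusted p = 0.0155) and Tbr1, a transcription factor of deep-layer neurons, by 0.28 ± 0.07 (edgeR adjusted p = 0.0310). Without the batch term none of the 6 named mRNA differences between DKO and WT was called, with edgeR adjusted p from 0.126 for Cort to 0.596 for Slc17a7. In DKO translational efficiency, where 4.85% of all genes were called, both excitatory markers were called lower. Slc17a7 was at -0.63 ± 0.17 (edgeR adjusted p = 0.0402) and Tbr1 at -0.51 ± 0.13 (edgeR adjusted p = 0.0320), each kept under 5 of 7 other settings. The median of the 15 markers in DKO was 0.17 in mRNA, -0.16 in footprints and -0.33 in translational efficiency. The summed mRNA level of the 15 markers ran from 3841 to 5129 CPM in WT and from 4133 to 5847 in DKO. Their part in the peptide genes' values was not tested.

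Npy encodes neuropeptide Y, carried by many somatostatin cells and by neurogliaform cells. Its mRNA averaged 152 CPM ± 42.6 (SD, n = 4) for DKO, 140.2 ± 23.2 for FXS, 129 ± 30.6 for S6K1 and 139.99 ± 24.6 for WT. The log2 fold changes of Npy mRNA against WT were 0.00 ± 0.09 in FXS, -0.14 ± 0.09 in S6K1 and 0.08 ± 0.09 in DKO, none called. DKO against S6K1 was 0.22 ± 0.09 (edgeR adjusted p = 0.24), also not called, and DKO was higher in 4 of 4 batches, by 0.07 to 0.39 log2 units. Footprints of Npy were lowest on average in S6K1, at 72.7 to 82.8 CPM against 79.7 to 105.4 in WT, with a log2 fold change of -0.30 ± 0.16 (edgeR adjusted p = 0.632). The lowest single library was DKO of batch 3, at 64.9 CPM, and DKO lay below WT by 0.70 log2 units in batch 3 and above it by 0.05 in batch 4. Npy footprints ran against the olfactory bulb sum, with r of -0.77 and rho of -0.77 over the 15 libraries. After centring on batch, Npy and Sst mRNA moved together over the 16 libraries, with Pearson's r of 0.76 (permutation p = 0.00033, adjusted p = 0.0148 over 90 relations) and Spearman's rho of 0.75 (permutation p = 0.00102). Without the 2 libraries farthest from the median of Sst, r was 0.69. In footprints the same pair had r of 0.66 (permutation p = 0.0409, adjusted p = 0.216) and rho of 0.45 (permutation p = 0.176), and r was 0.33 without 2 libraries.

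Vip encodes vasoactive intestinal peptide. Vip mRNA averaged 37.9 CPM ± 8.31 (SD, n = 4) for DKO, 37.1 ± 7.74 for S6K1, 39.6 ± 11.4 for FXS and 39.5 ± 8.78 for WT. Its log2 fold changes against WT were -0.01 ± 0.08, -0.09 ± 0.08 and -0.06 ± 0.08 in FXS, S6K1 and DKO. Vip footprints had values of 0.15 ± 0.09, 0.07 ± 0.11 and -0.01 ± 0.11. None of these differences was called, and in mRNA each was within about 1 SE of 0.

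Cck encodes cholecystokinin, which marks a class of basket cells and is also made by many pyramidal neurons, so that its level in whole cortex does not speak for interneurons alone. Cck footprints were 240.6, 321.4, 227.1 and 298.7 CPM in WT. In FXS they were 289, 250.4, 134.4, 276.4 and 221.8 CPM. They were 116.9, 281.3 and 226.7 CPM in S6K1 and 100.02, 137.7 and 240.4 CPM in DKO. The 2 lowest libraries were those of batch 1, which holds no WT library, and the DKO library of batch 4 lay within the WT range. In DKO the log2 fold change was -0.46 ± 0.25 in footprints (edgeR adjusted p = 0.367) and 0.16 ± 0.10 in mRNA (edgeR adjusted p = 0.335). By batch the DKO footprint difference was -1.22 in batch 3 and -0.12 in batch 4. The FXS footprint difference was 0.16 in batch 2, -1.26 in batch 3 and -0.07 in batch 4. Batch 3 holds the highest WT library, at 321.4 CPM. The DKO value in translational efficiency was -0.62 ± 0.27 (edgeR adjusted p = 0.162). A list of 15 other genes of Vip, Cck and Lamp5 cells had no member called in any comparison, with 14 tested in mRNA.

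**Figure D3:**
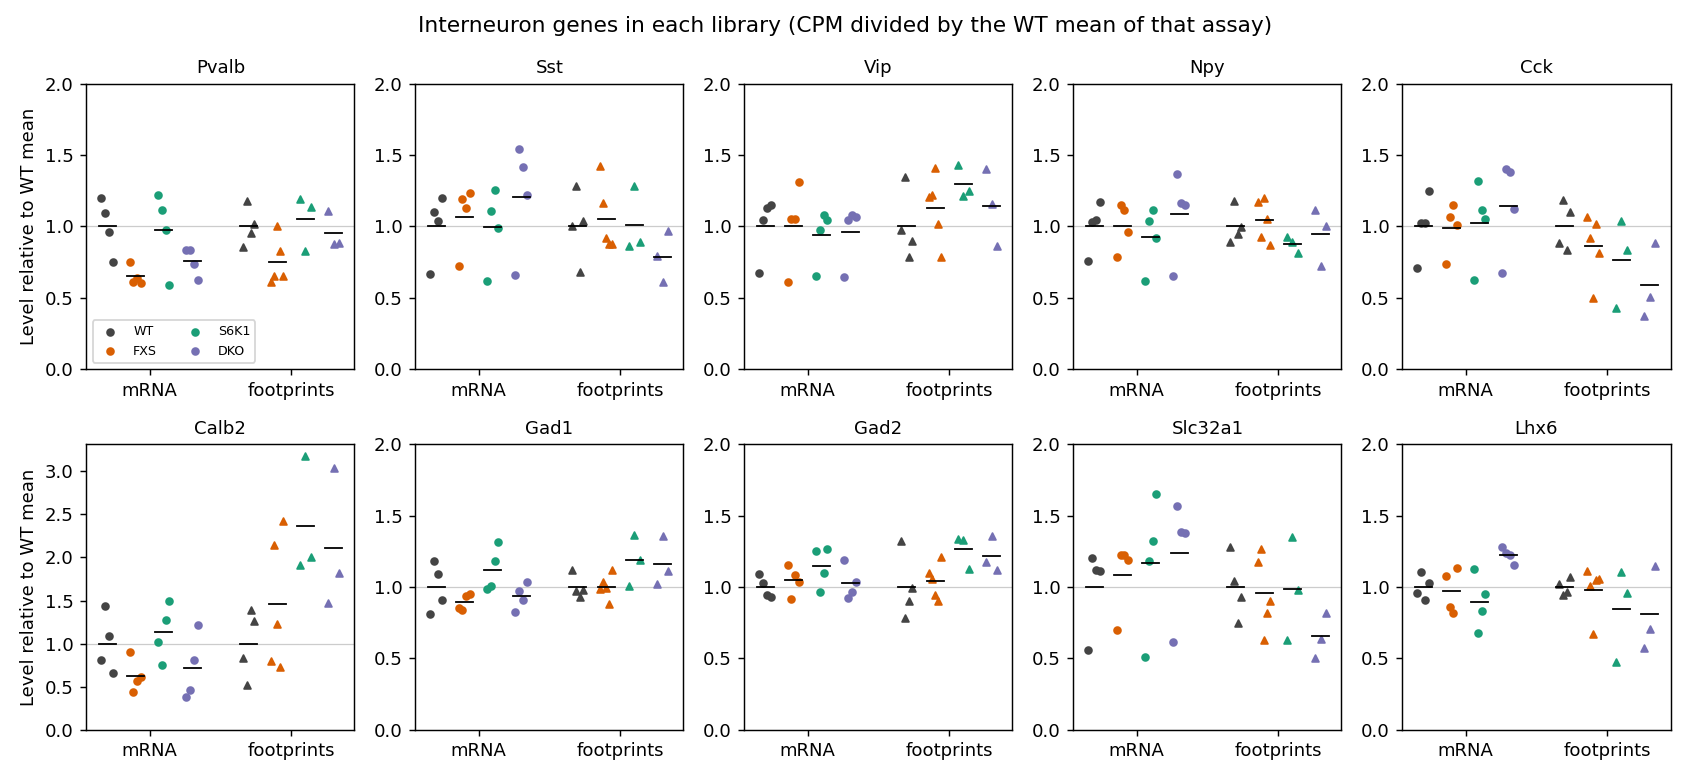
Level of each of the 10 genes in each library, as CPM divided by the WT mean of the same assay (vertical axis), with mRNA as circles and footprints as triangles. Colours give the genotype and short lines the group mean. Pvalb mRNA lies lower in FXS and DKO than in WT and S6K1, Lhx6 mRNA is highest in DKO, and Calb2, drawn on a wider axis, spreads most.

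Gad1 and Gad2 encode the glutamate decarboxylases GAD67 and GAD65, which make GABA. Gad1 footprints were 1038, 901.8, 863.6 and 912.7 CPM in WT. They were 934.9, 1270 and 1106 CPM in S6K1 and 945.6, 1259 and 1032 CPM in DKO. The highest S6K1 and DKO libraries were above all WT libraries, but the lowest were not. The log2 fold change was 0.30 ± 0.10 in S6K1 (edgeR adjusted p = 0.335) and 0.32 ± 0.09 in DKO (edgeR unadjusted p = 0.00392, adjusted p = 0.14), and within shared batches S6K1 and DKO were each above WT in 2 of 2. With the olfactory bulb covariate these values were 0.14 ± 0.12 and 0.17 ± 0.11. In FXS the footprint difference was -0.01 ± 0.08.

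Gad1 mRNA ran from 273 to 399 CPM in WT, from 283 to 320 in FXS, from 332 to 443 in S6K1 and from 279 to 349 in DKO. The genotypes overlapped, with log2 fold changes of -0.15 ± 0.09, 0.17 ± 0.09 and -0.09 ± 0.09. In translational efficiency Gad1 was 0.41 ± 0.14 log2 units higher in DKO than in WT (edgeR adjusted p = 0.0759), not called. It was called without mRNA WT replicate 4 (edgeR adjusted p = 0.0350) and by DESeq2 (adjusted p = 0.0402), and was 0.19 ± 0.15 with the olfactory bulb covariate. Gad2 footprints averaged 358 CPM ± 33.7 (SD, n = 3) for S6K1, 345 ± 35.95 (n = 3) for DKO, 296 ± 35.1 (n = 5) for FXS and 283 ± 65.8 (n = 4) for WT. The Gad2 log2 fold change in footprints was 0.33 ± 0.15 in S6K1 (edgeR adjusted p = 0.557) and 0.35 ± 0.14 in DKO (edgeR adjusted p = 0.247). Its mRNA differed from WT by 0.06 ± 0.08, 0.19 ± 0.08 and 0.03 ± 0.08 in FXS, S6K1 and DKO.

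Gad1 and Gad2 footprints moved together over the 15 libraries after centring on batch, with Pearson's r of 0.88 (permutation p = 0.00028, adjusted p = 0.0148) and Spearman's rho of 0.89 (permutation p = 0.00077), and r of 0.88 without the 2 libraries farthest from the median of Gad1. Calb2 and Gad1 mRNA did so too, with r of 0.81 (permutation p = 0.00093, adjusted p = 0.0279), rho of 0.82 (permutation p = 0.0011) and r of 0.82 without 2 libraries. These and the Sst and Npy pair were the only 3 of 90 relations among the 10 genes, 45 in each assay, with an adjusted p below 0.05. Libraries were centred on batch and not on genotype, so that genotype differences enter all 3 relations. With the olfactory bulb sum, r was 0.83 for Gad1 and 0.64 for Gad2 in footprints, and 0.94 for Calb2 and 0.69 for Gad1 in mRNA. The part of genotype or olfactory bulb RNA in these relations was not tested.

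Slc32a1 encodes VGAT, the transporter that loads GABA into synaptic vesicles. Its mRNA in batches 5 to 8 was 55.6, 119.6, 110.8 and 110.5 CPM in WT. It was 60.9, 155.2, 137.6 and 136.8 CPM in DKO. DKO was above WT in each of the 4 batches, by 0.13 to 0.38 log2 units, but the low batch 5 made the groups overlap. In DKO Slc32a1 mRNA had a log2 fold change of 0.29 ± 0.11 (edgeR adjusted p = 0.126). It was called when only WT and DKO libraries were fitted (edgeR adjusted p = 0.0299). Footprints of Slc32a1 lay the other way, at 47.9, 61.2 and 78.6 CPM in DKO against 71.3 to 123 CPM in WT. The log2 fold change in footprints was -0.28 ± 0.14 in DKO (edgeR adjusted p = 0.33), and by batch -0.71 in batch 3 and -0.02 in batch 4. The DKO library at 47.9 CPM was of batch 1, which holds no WT library and where S6K1 was at 59.9 CPM. FXS footprints differed from WT by -0.07 in batch 2, -0.74 in batch 3 and 0.05 in batch 4. FXS mRNA of Slc32a1 was above WT in 4 of 4 batches, by 0.02 to 0.32 log2 units. The difference in translational efficiency was -0.57 ± 0.19 in DKO (edgeR adjusted p = 0.0773), not called. It was called without footprint WT replicate 3 (edgeR adjusted p = 0.0285) and by DESeq2 (adjusted p = 0.0436). Of 8 other genes of GABA synthesis, transport and breakdown, such as Abat and Glul, none was called in any comparison.

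No member was called in translational efficiency, where edgeR called 0.0952% of all genes in FXS, 0.0293% in S6K1 and 4.85% in DKO against WT. In DKO against WT, 4 of the 10 genes had an unadjusted p below 0.05, namely Calb2 and Gad1 above and Slc32a1 and Cck below, beside 24.9% of all genes by the same edgeR test. The median of the 10 genes was -0.11, beside -0.02 over all genes. None was called in S6K1 against WT in mRNA (0.0211% of all genes), nor in DKO against FXS in mRNA (0.0281%), footprints (0.0143%) or translational efficiency (0.0146%). The same held for DKO against S6K1 in mRNA (0.387% of all genes), footprints (0.00717%) and translational efficiency (0.00732%), and for the interaction in all 3 measures, where edgeR called 0% of all genes.

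**Figure D4:**
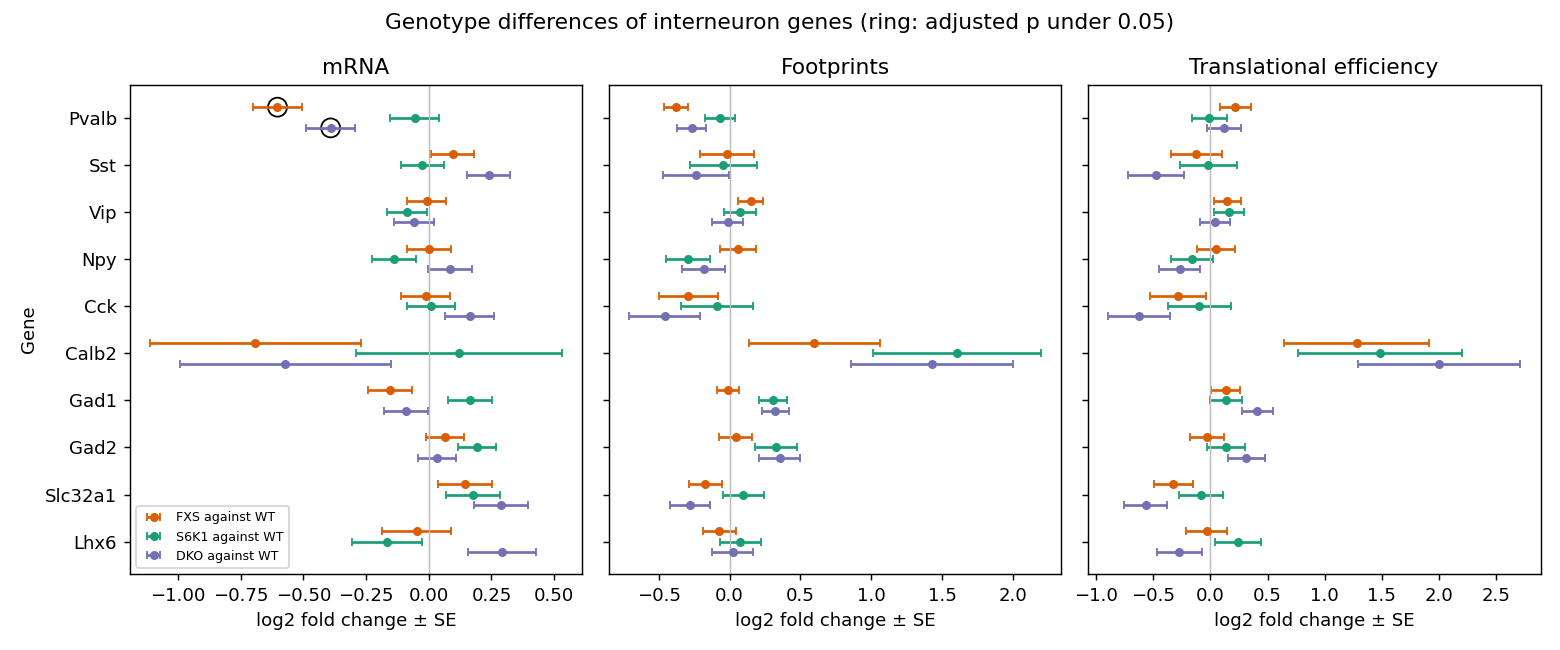
Log2 fold change ± SE (horizontal axis) of each gene in FXS, S6K1 and DKO against WT, for mRNA, footprints and translational efficiency, each panel on its own scale. Rings mark an adjusted p below 0.05. Only Pvalb mRNA is ringed, at -0.60 in FXS and -0.39 in DKO, and Calb2 has the widest errors.

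The ratio of footprint to mRNA CPM, both counted on the same gene, placed Gad2 and Gad1 high among 13654 genes in WT. Gad2 had a ratio of 3.72 (percentile 98.1) and Gad1 of 2.75 (percentile 95.6). Lhx6 followed at 1.497 (percentile 81.0) and Cck at 1.16 (69.2). Pvalb had a ratio of 0.967 (percentile 60.5), Slc32a1 of 0.966 (60.5), Vip of 0.917 (58.0) and Calb2 of 0.886 (56.3), and the peptide genes Sst at 0.656 (percentile 41.0) and Npy at 0.641 (percentile 40.0) were lowest. In DKO Slc32a1 stood at percentile 31.6, Cck at 37.99, Sst at 25.5 and Lhx6 at 61.3. Calb2 stood at 94.5 in DKO, 91.7 in FXS and 88.5 in S6K1, while Gad2 and Gad1 stayed at 98.7 and 97.3 in DKO. These are ratios of group means from different libraries and carry no error of their own. No batch term enters them, and the S6K1 and DKO footprint means include batch 1, which holds no WT library. Mean footprints in batch 1 were 108 CPM for Cck, 53.9 for Slc32a1, 136 for Sst and 7.88 for Lhx6. In batches 2 to 4 they were 205 to 265, 78.6 to 121, 146 to 201 and 12.2 to 15.9 CPM.

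Lhx6 encodes a LIM homeobox factor that parvalbumin and somatostatin cells keep into adult life. Lhx6 mRNA was 9.58, 11.04, 9.08 and 10.3 CPM in WT. It was 10.8, 8.60, 8.17 and 11.3 CPM in FXS. It was 11.3, 6.75, 8.33 and 9.48 CPM in S6K1 and 12.8, 12.4, 12.3 and 11.5 CPM in DKO. All 4 DKO libraries were above all 12 others, by 22.5% in mean against WT, 26.0% against FXS and 36.8% against S6K1. Groups separated upward in this way for 3.4%, 1.77% and 1.42% of all genes in these comparisons. For Lhx6 mRNA in DKO the log2 fold change was 0.29 ± 0.14 against WT (edgeR adjusted p = 0.204), 0.34 ± 0.13 against FXS (edgeR adjusted p = 0.414) and 0.46 ± 0.14 against S6K1 (edgeR adjusted p = 0.117), none called. Counts of 91 to 211 per library leave Lhx6 with a counting error of 10.5% at the lowest count, the largest of the 10 genes. Lhx6 footprints in DKO, at 8.61, 10.5 and 17.2 CPM, straddled the WT range of 14.1 to 16.03, with a log2 fold change of 0.02 ± 0.14. By batch the difference was -0.43 in batch 3 and 0.18 in batch 4. For FXS it was 0.06 in batch 2, -0.50 in batch 3 and 0.05 in batch 4. Of 17 other interneuron transcription factors, such as Sox6, Satb1 and Dlx1, none was called. The share of all genes called in mRNA against WT was 5.23% in DKO, 0.0211% in S6K1 and 0.155% in FXS. The median log2 fold change of the 17 in mRNA was 0.18 in DKO, 0.25 in S6K1 and -0.03 in FXS. Over all genes it was -0.00, 0.00 and -0.01. The summed mRNA level of the 17 was 376 to 390 CPM in DKO, 347 to 388 in S6K1 and 340 to 370 in FXS, against 323 to 359 in WT. In footprints the median log2 fold change was 0.39 in DKO and 0.43 in S6K1, beside -0.01 and -0.02 over all genes. The summed footprints were not higher, at 414 to 509 CPM in DKO, 330 to 466 in S6K1 and 420 to 520 in WT, so the groups overlapped. Sp8 of this list is also among the olfactory bulb genes.

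Batch 5 stood apart for 5 of the 10 genes by more than any genotype did. In batch 5, mean mRNA over its 4 libraries was lower than in the other 12 libraries by 1.12 log2 units for Slc32a1 (59.0 against 129 CPM), 0.84 for Sst, 0.75 for Cck, 0.75 for Vip and 0.65 for Npy. Pvalb, Gad2 and Lhx6 lay the other way, at 0.34, 0.21 and 0.18. All 4 genotypes of batch 5 shared the low values of the peptide genes and Slc32a1. Each genotype was in that batch once, and without it the Pvalb log2 fold change was -0.57 ± 0.12 in FXS (edgeR adjusted p = 0.0757) and -0.35 ± 0.12 in DKO (edgeR adjusted p = 0.0988).

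**Figure D5:**
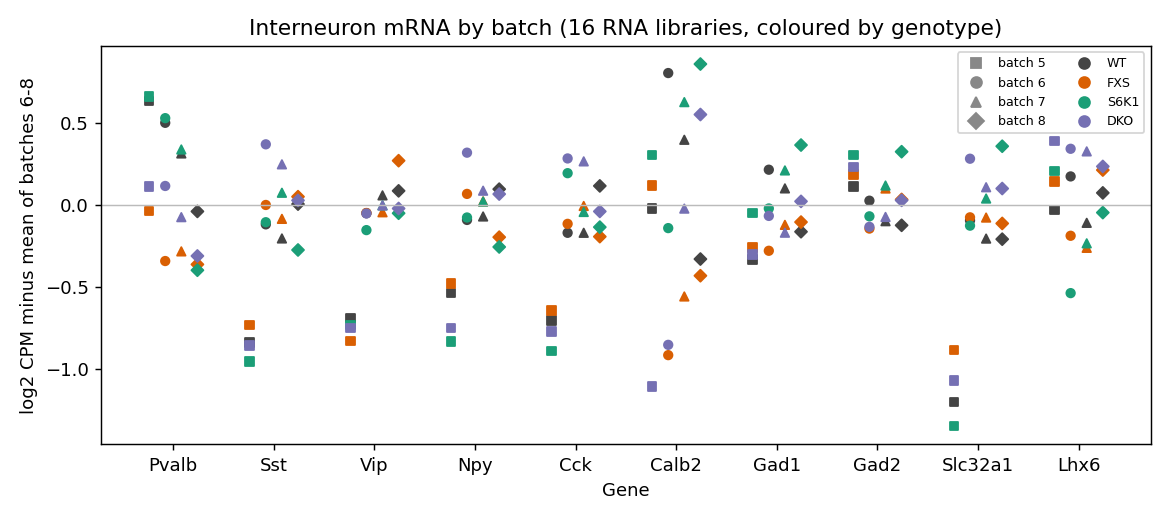
Log2 mRNA level of each gene in the 16 libraries, minus the mean of batches 6 to 8 of that gene (vertical axis). Symbols give the batch and colours the genotype. The 4 squares of batch 5 lie far below 0 for Sst, Vip, Npy, Cck and Slc32a1 and not for Pvalb, Gad2 or Lhx6.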

How the data were processed

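Ribosome footprints and mRNA were sequenced from mouse cortex, and the authors deposited counts per gene symbol for each library, counted on coding sequences by the table names. The submitters' processing notes name cutadapt 2.0, Bowtie2, TopHat2, RSEM and build mm10 without their roles. The tables of the authors' deposited comparisons hold a mean signal, log2 fold changes with standard errors, a test score and p-values, per the file headers, and their model is not given in the sources used here.

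Genes were filtered with edgeR's filterByExpr, scaled by TMM within each assay and fitted with edgeR 4.0.16 (R 4.3.3) quasi-likelihood models over all 4 genotypes with batch as a term. Translational efficiency was the footprint minus the mRNA contrast in 1 model of all libraries, scaled on the 13654 genes fitted, a choice made after its counts of calls had been seen. P-values were adjusted over all genes tested, and calls use 0.05. DESeq2 1.42.0, limma 3.58.1 voom and other settings were alternatives. Levels are CPM from effective library sizes. Log2 levels used a prior count of 2 in the search for the genes most like a member, and no prior count in the other correlations and batch differences. Correlations used log2 levels centred on batch. Those between members had p from permutations within batch, computed in numpy 2.4.6.

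The labels give a batch for each library. In mRNA the replicate number stands for the batch, which pairs the genotypes. No 2 replicates were alike within sampling noise (lowest chi-square per degree of freedom 4.81 in mRNA and 8.09 in footprints). In simulated footprint counts for DKO against WT with 13589 genes, 53% of 100 genes changed 1.5-fold and 83% of 100 genes changed 2-fold were called, and 0.0747% of 13389 unchanged genes. Named besides the 10 members were the 2 targeted genes, up to 3 called genes a list and the 5 genes most like a member. The members and lists were chosen with earlier results of these data known, among them the lower Pvalb mRNA, which is therefore not independent support. Promoter windows came from RefSeq. A result for 1 gene of the marker lists is not reported here.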

Additional observations from a re-analysis of the deposited data

Results flagged for a closer look

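Over the 10 genes, 60 groups of 4 or 5 libraries were examined for a highest or lowest library far from the rest, and 4 values stood apart. Chance alone gives about 1 in 20 groups. Slc32a1 mRNA was 55.6 CPM in WT replicate 1, against 110 to 120 in the other WT libraries. Slc32a1 mRNA was 69.2 CPM in FXS replicate 1, against 118 to 121 in the other FXS libraries. Vip mRNA was 25.5 CPM in DKO replicate 1, against 41.3 to 42.7 in the other DKO libraries. These 3 libraries belong to batch 5. Lhx6 footprints were 9.99 CPM in FXS replicate 3, against 15.1 to 16.7 in the other FXS libraries.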

How the results depend on the processing

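Of 357 recomputed counts of called members, 332 stayed as reported, and of 3570 member values 3542 kept their call and direction, with no called value reversed. In mRNA of FXS against WT the count of 1 became 0 without the batch block and 0 without batch 5, and ran from 0 to 1 with a library left out. In mRNA of DKO against WT the count of 1 became 0 without the batch block, 0 without batch 5 and 2 with only these genotypes fitted, and ran from 0 to 2 with a library left out. In mRNA of DKO against S6K1, DESeq2 called 2 (Pvalb -0.32, Sst 0.27), and leaving out a library gave 0 to 1, the 1 being Pvalb (-0.45) without S6K1 replicate 4. In footprints, DESeq2 called 1 in FXS against WT, and fitting only S6K1 and WT called 1, Calb2 (1.95). In translational efficiency of DKO against WT, DESeq2 called 3 (Calb2 2.04, Gad1 0.42, Slc32a1 -0.56), and leaving out a library gave 0 to 1. The cause was not tested. The replicate block, batch, changed no other count of members.

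Over all genes the counts moved more. In mRNA, edgeR called 22 genes in FXS against WT, DESeq2 204, voom 9 and edgeR without the block 2. In DKO against WT these were 743, 1085, 667 and 2. In footprints of DKO against WT edgeR called 51 genes and DESeq2 290. Translational efficiency in DKO against WT had 662 calls, 10 with the olfactory bulb covariate, and in FXS 13, but 2 when each assay was scaled on its own filtered genes. That covariate and that scaling were chosen after the data were seen, as was running the other settings on the called genes of the lists. In simulated footprints 53% of 1.5-fold changes were called, so smaller footprint differences may go uncalled, and Lhx6 has the lowest counts.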

Other observations

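Markers of other cells and regions were followed beside the interneuron genes. None of 12 striatal, 8 astrocyte, 8 microglial or 7 endothelial genes was called against WT in mRNA, footprints or translational efficiency by edgeR. Of all genes, edgeR called 0.155%, 0.0211% and 5.23% in mRNA of FXS, S6K1 and DKO against WT. These shares were 0.165%, 0.00717% and 0.366% in footprints, and 0.0952%, 0.0293% and 4.85% in translational efficiency. The median log2 fold change of the 12 striatal genes in footprints was 0.61 in S6K1 and 0.30 in DKO. Their summed footprints ran from 276 to 847 CPM in WT, 269 to 744 in S6K1 and 208 to 396 in DKO. Of 12 oligodendrocyte genes, the footprints of Cnp, which encodes a myelin enzyme, fell by 0.52 ± 0.07 in FXS (edgeR adjusted p = 0.00785) and by 0.64 ± 0.08 in DKO (edgeR adjusted p = 0.00456). Footprints of Myrf, a transcription factor of myelination, fell by 0.69 ± 0.10 in FXS (edgeR adjusted p = 0.0127) and by 0.84 ± 0.12 in DKO (edgeR adjusted p = 0.0132). In mRNA none of the 12 was called in FXS, and in DKO Olig1 alone was called, 0.39 ± 0.09 higher (edgeR adjusted p = 0.0145). The translational efficiency of Olig1 was called lower in DKO, at -1.13 ± 0.27 (edgeR adjusted p = 0.0265). That of Cnp was called lower in S6K1, at -0.63 ± 0.11 (edgeR adjusted p = 0.0352), and in DKO, at -0.71 ± 0.11 (edgeR adjusted p = 0.00327).

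The genes whose mRNA followed Sst most closely over 16 libraries were Mpv17l2 (r = 0.90), Tor2a (0.89), Cactin (0.88), Bax (0.88) and Dalrd3 (0.87), with footprint r of 0.74, 0.60, 0.61, 0.54 and 0.06. For Gad1 they were Inpp5j (0.89), Ift81 (0.87), Myo16 (0.87), Tshz1 (0.86) and Ppp3cc (0.86), with footprint r of 0.62, 0.30, 0.82, 0.75 and 0.02. For Vip they were Lipe (0.87), Fam107a (0.85), Cd34 (0.81), Gjb6 (0.81) and Fgd6 (0.81), with footprint r of -0.72, 0.12, 0.36, 0.33 and -0.25. These are descriptions with no test, and libraries were centred on batch and not on genotype.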
